A study of Mus musculus with 4 samples.

Results

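The genes examined were the 3 that encode the secreted peptides of the mouse beta cell, Ins1, Ins2 and Iapp. They were read by symbol from the 32285 genes of 4 single-cell count matrices of pancreatic islets, and all 3 were found in each matrix. Each group was 1 library from islets of male mice aged 8 weeks. The Cre-positive library came from Pdx1 cre+ mice and the Cre-negative library from Pdx1 cre- mice. Both were Tet2(flox/flox) and Tet3(flox/flox), so both carried the floxed alleles of these DNA demethylation enzymes. The IHG library came from offspring of the intrauterine hyperglycemia model and its comparison library from offspring of the control model, and the labels give no genotype for either. Pdx1-driven Cre acts in the pancreatic epithelium from which all endocrine cells arise, so the alleles are not targeted in beta cells alone, and endothelial, mesenchymal and immune cells are outside its reach. How many mice went into a library is not stated in the sources used here. With 1 library a group there was no test between groups. Every interval below is a 95% interval of counting error, which leaves out the variation between animals, islet preparations and libraries.

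Insulin is made as preproinsulin, cut to its mature chains in the secretory granule and released when glucose rises. Rats and mice carry a pair of insulin genes. Ins2 is the ancestral gene with its introns, and Ins1 is a retroposed copy that kept part of the upstream regulatory region. Iapp encodes amylin, a small peptide stored with insulin in the granule and secreted with it. Amylin slows gastric emptying and reduces food intake. Human amylin forms islet amyloid, which mouse amylin does not. In rodents, Iapp is also transcribed in somatostatin-secreting delta cells.

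In GENCODE vM21 on GRCm38, Ins1 lies on chromosome 19 from 52264297 to 52265476 on the plus strand. Ins2 lies on chromosome 7 from 142678656 to 142743381 on the minus strand, a span of 64726 bases over all its annotated transcripts. The Ins2 transcript used for the sequences below has 552 bases. Iapp lies on chromosome 6 from 142298423 to 142303961 on the plus strand, inside the span of Slco1a5 on the opposite strand. Slco1a5 had 62 UMIs in Cre-positive, 149 in Cre-negative, 82 in IHG and 106 in control offspring beta-like cells, against 1731542, 1571330, 2611941 and 3490081 Iapp UMIs in the same order. The coding sequences of Ins1 and Ins2 hold 327 and 333 bases and are identical at 302 of 333 aligned positions (90.7%). Their likeness is greatest at the end that encodes the A chain of insulin. The last 63 coding bases before the stop codon are shown because they are where reads from one gene are most easily counted for the other, with the 1 base that differs in capitals. Ins1 is at chr19:52264885-52264947 on the plus strand and Ins2 at chr7:142678716-142678778 on the minus strand, from GENCODE vM21 on GRCm38.
Ins1: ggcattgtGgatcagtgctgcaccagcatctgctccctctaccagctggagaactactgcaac
Ins2: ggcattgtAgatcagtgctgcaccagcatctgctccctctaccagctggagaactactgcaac
The longest run shared by the transcripts of the pair was 56 bases, and 7 of the 1013 windows of 50 bases in the Ins1 transcripts occurred in Ins2. The treatment of reads that match both genes is not stated, so a small exchange of UMIs between Ins1 and Ins2 cannot be told apart from expression.

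The promoter windows of Ins1 and Iapp are shown because both genes stood among the most abundant messages of beta-like cells. Each window is the stretch just upstream of the gene start, from RefSeq on GRCm38.p6, 250 bases at chr19:52264047-52264296 for Ins1 and 248 bases at chr6:142298175-142298422 for Iapp, both on the plus strand. The table of promoters matched 2 of the 3 members, Ins1 and Iapp. Capitals mark 2 short motifs searched on both strands, TAAT, the core bound by homeodomain factors such as Pdx1 and Nkx6-1, and CANNTG, the E-box bound by basic helix-loop-helix factors such as Neurod1.
Ins1 promoter: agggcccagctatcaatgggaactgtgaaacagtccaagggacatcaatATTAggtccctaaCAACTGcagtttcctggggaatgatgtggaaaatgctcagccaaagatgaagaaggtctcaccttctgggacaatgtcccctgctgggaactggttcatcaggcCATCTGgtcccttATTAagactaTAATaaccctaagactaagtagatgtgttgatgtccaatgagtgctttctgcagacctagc
Iapp promoter: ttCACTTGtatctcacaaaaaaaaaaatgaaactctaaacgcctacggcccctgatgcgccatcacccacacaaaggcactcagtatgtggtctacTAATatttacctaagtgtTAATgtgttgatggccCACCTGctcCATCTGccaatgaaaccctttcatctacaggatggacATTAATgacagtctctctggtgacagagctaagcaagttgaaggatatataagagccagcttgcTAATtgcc
TAAT occurred 3 times in the Ins1 window and 5 times in the Iapp window, where 2 of the matches overlap within ATTAAT, and 54.9% of all 32851 promoter windows of 250 bases hold it. CANNTG occurred 2 times in the Ins1 window and 3 times in the Iapp window, against 66.2% of windows with a match. TGACG, a part of the cyclic AMP response element, and TGCTGA, a part of the element bound by Maf factors, had no match in either window, against 17.8% and 16.1% of all windows. Both windows end at the annotated gene start, and no base past it was searched. Promoter elements nearer the coding sequence may thus lie outside the windows, so a missing motif does not show that a promoter lacks it. Motifs this short are common, and a match or its absence describes these letters only.

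The matrices held 10145 (Cre-positive), 6421 (Cre-negative), 12684 (IHG) and 16459 (control offspring) barcodes with median depths of 5334 to 7373 UMIs, and 868 of 44834 distinct barcode sequences occurred in 2 or more libraries. A UMI (unique molecular identifier) marks 1 captured transcript at its 3′ end, so counts are not scaled by transcript length. After filters on genes, mitochondrial share and doublets 8975, 5572, 11196 and 14730 cells were kept in the same order. Cells were clustered and named without the 3 members, so that no class rested on the genes under study. The beta-like class held 2780, 2876, 5442 and 10420 cells and was named from fixed markers such as Mafa, Slc2a2, G6pc2 and Ucn3. Different clusters made up this class in different libraries. Cluster 2 held 82.7% of Cre-positive beta-like cells and cluster 5 held 89.4% of those of the Cre-negative library, while clusters 4 and 1 held 43.4% and 33.5% in IHG offspring and clusters 0 and 1 held 50.6% and 36.5% in control offspring. Tet2 had 33.5 CPM (counts per 1000000 UMIs of the class) in Cre-positive and 45.5 CPM in Cre-negative beta-like cells, and Tet3 had 26.1 CPM and 33.9 CPM. Whether these 3′ counts lie inside the deleted part of either gene is not given, so they do not check the labels.

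The 3 members were among the most abundant messages of each library. Together they took 15.4% of all UMIs in the Cre-positive, 18.9% in the Cre-negative, 25.8% in the IHG and 28.6% in the control offspring matrix. Ins2 ranked first among all genes in each of the 4 matrices. Ins1 ranked 2 or 3 and Iapp ranked 2 to 4. In beta-like cells Ins2 stood at 185792 CPM in Cre-positive and 179984 CPM in Cre-negative cells, and at 245210 CPM in IHG and 227045 CPM in control offspring cells. The level of Ins1 was 57805 CPM in Cre-positive and 45050 CPM in Cre-negative cells, and 78126 CPM in IHG and 66888 CPM in control offspring cells. Iapp had a narrower range over the libraries, at 51797 CPM in Cre-positive, 49801 CPM in Cre-negative, 49529 CPM in IHG and 46427 CPM in control offspring cells. The order Ins2, Ins1, Iapp held in 3 libraries, and in Cre-negative beta-like cells Iapp stood above Ins1.

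**Figure D1:**
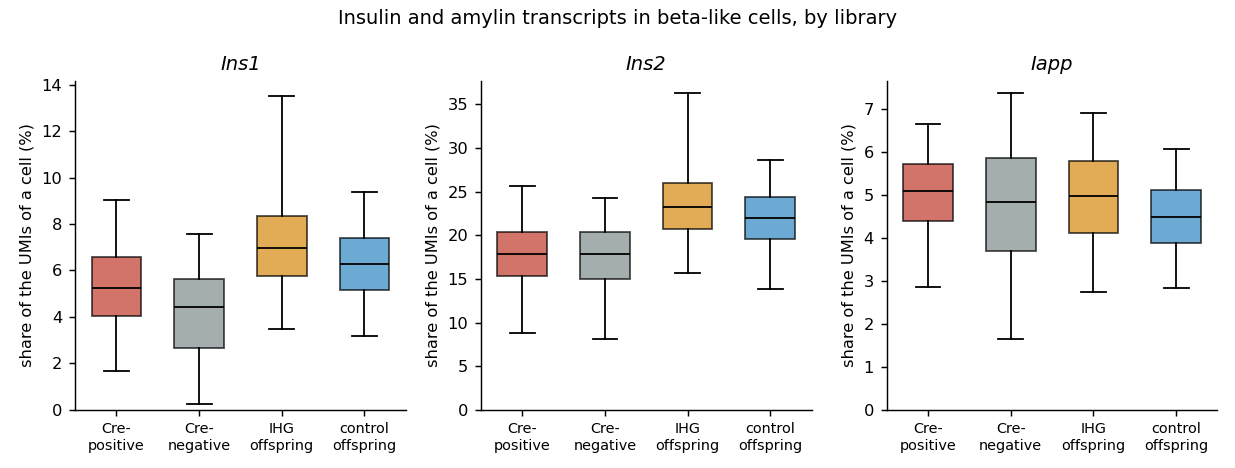
Share of a cell's UMIs (%) that came from Ins1, Ins2 and Iapp in beta-like cells of the 4 libraries. Boxes run from the 25th to the 75th percentile with the median as a line, and whiskers from the 5th to the 95th percentile of cells. The whisker for Ins1 reaches down to 1.65% in Cre-positive and 0.245% in Cre-negative cells, and to 3.48% in IHG and 3.19% in control offspring cells.

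In single beta-like cells the share of UMIs given over to the 3 genes varied by several fold. The combined share ran from 14.0% at the 5th percentile through a median of 28.5% to 39.3% at the 95th in Cre-positive cells, and from 11.4% through 27.3% to 36.9% in Cre-negative cells. In offspring it ran from 24.3% through 35.5% to 53.9% in IHG cells, and from 21.2% through 32.9% to 42.5% in control cells. Cells that spent over 50% of their UMIs on the 3 genes were 6.06% (5.44 to 6.73) of IHG and 0.845% (0.678 to 1.04) of control offspring beta-like cells. They were 1.15% (0.789 to 1.62) of Cre-positive and 0.313% (0.143 to 0.593) of Cre-negative beta-like cells. The ranges of the libraries overlapped throughout. Nearly every beta-like cell carried each message: Ins2 was found in 100% of cells in all 4 libraries, and Ins1 in 99.8% to 100% of cells.

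Cre-positive beta-like cells had 1.28-fold (1.28 to 1.29) the Ins1 level of the Cre-negative ones, 1.03-fold the Ins2 level and 1.04-fold the Iapp level. None of the 3 passed the 1.5-fold size rule, which 25.5% of the 6429 genes with 20 CPM or more in either library passed in one direction or the other. The difference in Ins1 was larger than that of 52.0% of those genes, the difference in Ins2 than that of 7.48% and the difference in Iapp than that of 9.19%. The median log2 ratio of all genes in this comparison was -0.20, and with the members scaled to the typical gene Ins1 stood at a log2 ratio of 0.56, Ins2 at 0.24 and Iapp at 0.26. The makeup of the class by cluster moved with these ratios. In cluster 0, Ins1 had 58642 CPM in 153 Cre-positive cells and 58640 CPM in 128 Cre-negative cells, a ratio of 1.00 (0.986 to 1.01). These cells were 5.50% and 4.45% of their beta-like classes and unlike in depth, with medians of 2138 and 6656.5 UMIs. In cluster 1 Ins1 had 64206 CPM in 311 Cre-positive and 61405 CPM in 121 Cre-negative cells, a ratio of 1.05 (1.04 to 1.05). Here the cells were 11.2% and 4.21% of their classes, with median depths of 9624 and 11823 UMIs. Both clusters thus cover a minority of either class. Within those clusters Ins2 was 0.942 and 0.939 times its Cre-negative level, and Iapp 0.924 and 0.875 times. The direction of Ins2 and Iapp between these libraries therefore turned with the clusters compared. Cluster 5, where 11 cells were Cre-positive and 2572 Cre-negative, and cluster 2, where 2298 were Cre-positive and 23 Cre-negative, hold too few cells of the other library for such a ratio. Another islet hormone took over 1% of UMIs in 9.35% of the Cre-positive class and in 6.43% of its Cre-negative counterpart, and without them the log2 ratio of Ins1 was 0.34, against 0.36 with them. With the libraries clustered separately it was 0.16.

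In offspring, Ins1 was 1.17-fold (1.17 to 1.17) higher in IHG than in control beta-like cells, Ins2 1.08-fold and Iapp 1.07-fold. None passed the 1.5-fold rule, which 1.12% of 5514 genes passed here. The median log2 ratio of all genes was -0.07. Ins1 was higher in IHG cells of cluster 0 (1.24-fold, 82758 CPM against 66788 CPM), cluster 1 (1.13-fold) and cluster 4 (1.21-fold), and lower in cluster 2, at 44464 CPM in 461 IHG cells and 47662 CPM in 549 control offspring cells (0.933 times). Ins2 was 1.12, 1.07, 1.00 and 1.09 times its control level in clusters 0, 1, 2 and 4. Iapp was 1.00, 0.959, 1.04 and 1.16 times its control level in the same clusters, so its direction differed between clusters.

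**Figure D2:**
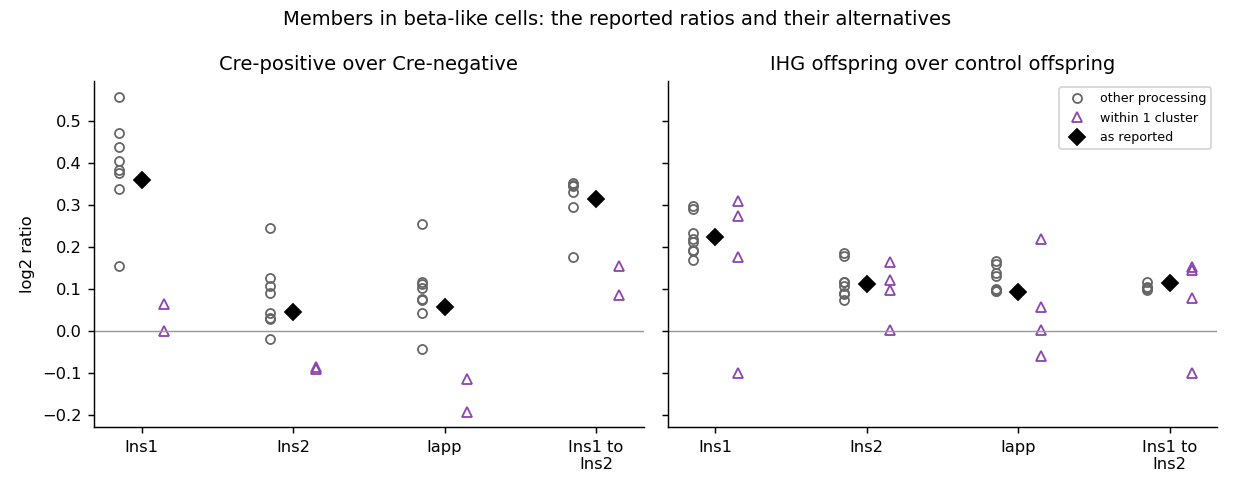
Log2 ratios in beta-like cells for Cre-positive over Cre-negative (left) and IHG over control offspring (right), for each member and for the Ins1 to Ins2 ratio. Diamonds are the values as reported, circles other ways of processing the same cells, and triangles the ratio within 1 cluster. The Ins1 triangles of the left panel sit at 0.00 and 0.06, below the reported 0.36.

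The ratio of Ins1 to Ins2 UMIs needs no scaling, since both are counted in the same cells. It was 0.311 (0.311 to 0.312) in Cre-positive and 0.250 (0.250 to 0.251) in Cre-negative beta-like cells, and 0.319 (0.318 to 0.319) in IHG and 0.295 (0.294 to 0.295) in control offspring beta-like cells. The Cre-positive ratio was 1.24 times the Cre-negative one and the IHG ratio 1.08 times the control one. In cluster 0 the Cre-positive ratio was 1.06 times the Cre-negative one and in cluster 1 it was 1.11 times. The IHG ratio was 1.11, 1.06 and 1.11 times the control one in clusters 0, 1 and 4, and 0.932 times (0.925 to 0.940) in cluster 2, where the direction turned. The ratio of Iapp to Ins2 was 0.279 in Cre-positive and 0.277 in Cre-negative cells, and 0.202 in IHG and 0.204 in control offspring cells. Summed over the class, Iapp to Ins2 was thus nearly the same within each comparison. Within clusters it differed more. IHG and control values were 0.175 and 0.196 in cluster 0 and 0.186 and 0.208 in cluster 1. In clusters 2 and 4 the IHG value was the higher, at 0.264 and 0.254, and 0.213 and 0.199. Cre-positive and Cre-negative values were 0.255 and 0.260 in cluster 0, and 0.246 and 0.264 in cluster 1. The pairs of libraries differed from each other in the class value of Iapp to Ins2. Since nothing in the labels pairs a floxed library with an offspring library, no ratio was formed across them. Rankings over all libraries are descriptions only.

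The ratios shifted with the share of UMIs that a cell gave to the 3 genes, in the Cre-negative library without a steady course. Among Cre-positive beta-like cells with a combined share of 10% to 20%, Ins1 to Ins2 was 0.210 and Iapp to Ins2 was 0.397. Among those with 40% or more they were 0.394 and 0.145. The Cre-negative values were 0.108 and 0.260 in the low range, and 0.315 and 0.183 in the high range. Between them Cre-negative Iapp to Ins2 was higher, at 0.288 from 20% to 30% and 0.272 from 30% to 40%, and below 10% Cre-negative Ins1 to Ins2 was 0.156. IHG cells gave 0.158 and 0.412 in the low range, and 0.363 and 0.143 in the high range. Control offspring cells gave 0.216 and 0.307, and then 0.319 and 0.171. The 3 genes enter both the share and the ratio, so this is a description of how their makeup shifted along the range. Over cells, the shares of Ins1 and Ins2 had Spearman correlations of 0.85 (Cre-positive, 2780 cells), 0.65 (Cre-negative, 2876 cells), 0.81 (IHG, 5442 cells) and 0.79 (control offspring, 10420 cells). Iapp and Ins2 shares gave 0.20, 0.34, -0.13 and 0.17 in the same order. These are descriptions of cells within 1 library, whose shares have a common denominator.

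The make-up of insulin message varied most between single cells in the Cre-negative library. Where a beta-like cell held 100 or more insulin UMIs, Ins1 took a median of 22.9% of them in Cre-positive, 19.9% in Cre-negative, 23.2% in IHG and 22.2% in control offspring cells. The standard deviation of that percentage over cells was 4.64, 8.12, 4.19 and 3.59 percentage points in the same order, against 0.93 to 1.16 points from counting alone. Cre-negative cells formed a second group near 0. Ins1 took under 10% of insulin UMIs in 43 of 2714 Cre-positive beta-like cells (1.58%, 1.15 to 2.13), against 441 of 2815 Cre-negative ones (15.7%, 14.3 to 17.1). In offspring it did so in 77 of 5406 IHG (1.42%) and 74 of 10344 control cells (0.715%). The limit of 10% was chosen after the distributions were seen. From 7.5% up to that limit there were 15 Cre-positive, 87 Cre-negative, 27 IHG and 40 control offspring cells, and in the next 2.5 points 21, 109, 28 and 29. Among cells with 500 or more insulin UMIs the share under 10% was 0.815% in Cre-positive and 14.4% in Cre-negative cells, and 0.939% in IHG and 0.368% in control offspring cells.

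**Figure D3:**
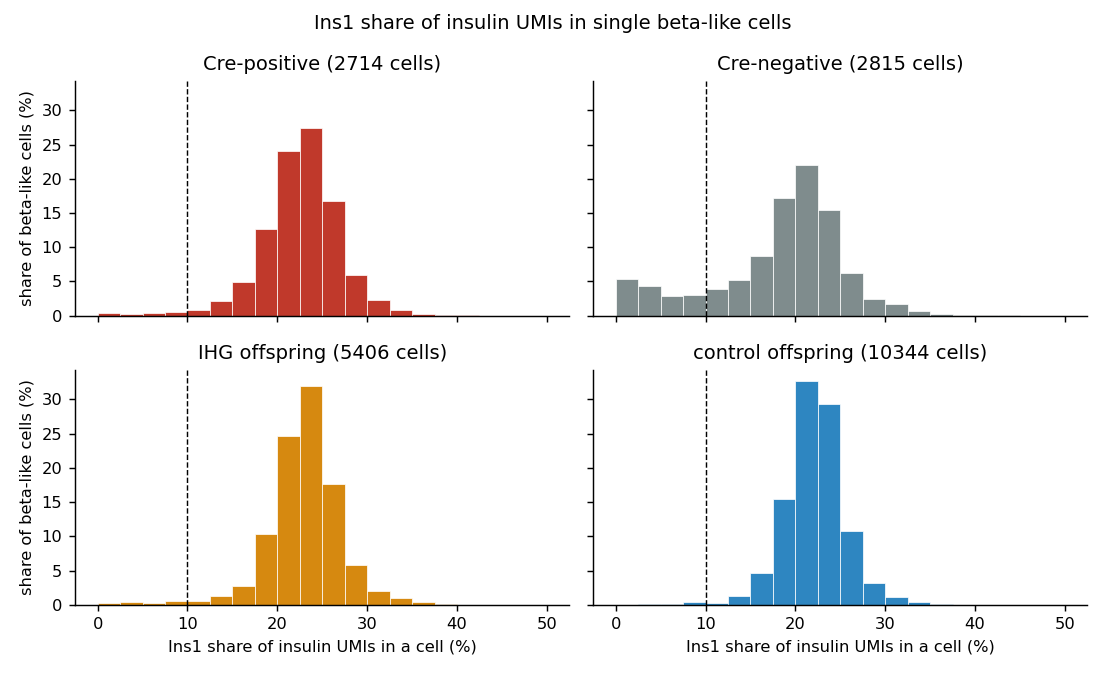
Distribution over beta-like cells with 100 or more insulin UMIs of the percentage of those UMIs that came from Ins1, by library, in bins of 2.5 points. The dashed line marks 10%, and cells above 50% (10 in all libraries together) are not drawn. Below the line lie 1.58% of Cre-positive cells and 15.7% of Cre-negative cells, which form a second rise there.

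The count did not need the class. Over all kept cells with 100 or more insulin UMIs, Ins1 was under 10% in 106 of 3335 Cre-positive (3.18%, 2.61 to 3.83) and 614 of 3141 Cre-negative cells (19.5%, 18.2 to 21.0), and in 208 of 6405 IHG (3.25%) and 132 of 11638 control offspring cells (1.13%). Which of these cells were named beta-like did depend on the clustering. When each library was clustered alone, the share under 10% was 0.337% in the Cre-positive and 1.70% in the Cre-negative beta-like class. In that setting Cre-negative clusters of 647 cells (marker scores delta 0.721, beta 0.693) and 470 cells (beta 1.51, delta 1.17) stayed unnamed. How many cells with little Ins1 these clusters held was not counted, and the cause of the change in share was not tested. All 43 Cre-positive beta-like cells under 10% were in cluster 2, while 438 of the 441 Cre-negative ones were in cluster 5. In offspring 69 of 77 IHG cells and 62 of 74 control cells were in cluster 2. The Cre-negative cells with little Ins1 were not empty of insulin. They held a median of 1181 insulin UMIs and gave a median of 14.7% of their UMIs to Ins2, against 18.5% in the other Cre-negative beta-like cells. Their median depth was 7927 UMIs and that of the others 10548, and their mitochondrial shares were 7.01% and 8.07%. Among cells with 500 or more insulin UMIs, as given above, the share stood at 14.4%.

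Other genes differed with Ins1, here as a description since the cells were chosen by it. In the Cre-negative library Mafa, a transcription factor of mature beta cells that binds the insulin promoter, had 8.35 CPM (33 UMIs) in the cells with little Ins1 and 493 CPM in the other beta-like cells, 59.0-fold lower (42.0 to 85.8). Ucn3, a peptide of mature beta cells, was 32.0-fold lower, Tmem215 26.4-fold, Trpm5, a cation channel, 18.0-fold and G6pc2, an islet glucose-6-phosphatase, 8.22-fold lower. Nkx6-1, a transcription factor of the beta lineage, was at 535 CPM in these cells and 659 CPM in the others, and Gjd2, the gap junction protein of beta cells, at 598 CPM and 420 CPM. Iapp stood at 36437 CPM in these cells, against 51925 CPM. The level of Sst, the hormone of delta cells, was 7604 CPM against 1481 CPM, that of Ppy 315 CPM against 54.4 CPM and that of Pyy, a gut and islet peptide, 3712 CPM against 702 CPM. The other libraries showed the same direction for Mafa, Ucn3 and G6pc2 in their far fewer cells. Mafa was 14.9-fold lower in the Cre-positive cells with little Ins1 than in the rest, 15.3-fold lower in IHG and 7.40-fold lower in control offspring cells. Ucn3 was 23.4-fold, 5.70-fold and 3.74-fold lower in the same order. Nkx6-1 went the other way than in the Cre-negative library, at 1.35, 1.29 and 1.23 times the level of the rest in that order. Gjd2 stood at 1.08, 1.18 and 1.40 times the level of the rest, higher as in the Cre-negative library. Ppy was 15.2-fold higher in such Cre-positive, 5.80-fold higher in such Cre-negative, 37.9-fold higher in such IHG and 27.8-fold higher in such control offspring cells. Sst was 0.612 times the level of the rest in Cre-positive and 5.13 times in Cre-negative cells, and 8.26 times in IHG and 0.603 times in control offspring cells. The part of these hormones in the result was not tested.

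An unnamed cluster that scored highest for beta markers, cluster 11, led by Sez6l, Penk, Car15 and Pdyn, held further cells of this kind. It had 2 Cre-positive, 359 Cre-negative, 470 IHG and 33 control offspring cells. Ins1 to Ins2 was 0.132 (0.130 to 0.134) in its Cre-negative cells, 0.235 in its IHG cells and 0.215 in its control offspring cells. Among its cells with 100 or more insulin UMIs, Ins1 was under 10% in 163 of 257 Cre-negative (63.4%), 121 of 403 IHG (30.0%) and 6 of 27 control offspring cells (22.2%). The reverse, Ins1 above 50% of insulin UMIs, was rare. It was met in 3 of 3335 Cre-positive cells, 31 of 3141 Cre-negative cells (0.987%, 0.672 to 1.40), 2 of 6405 IHG and 3 of 11638 control offspring cells of any class. In 16 of the 31 Cre-negative cells Ins1 passed 80%, and 21 of the 31 were in cluster 11. Their median of insulin UMIs was 190, so they were poor in insulin message. Insulin message at beta-like levels was also met in some cells outside the class. Proliferating cells, a cluster led by Top2a and Stmn1 and otherwise scoring for beta markers, held 197400 CPM of Ins2 in Cre-positive and 137839 CPM in Cre-negative cells, and 226408 CPM in IHG and 225081 CPM in control offspring cells. In the Cre-positive library this was above the beta-like level, as was its Ins1 at 69901 CPM. The unnamed cluster 19 held 171439 CPM of Ins2 in IHG and 192129 CPM in control offspring cells. Its leading genes were Rgs5, Plvap, Mgp and Sparc, and its best marker scores were endothelial (3.37) and pericyte and smooth muscle (2.96). The insulin message of cluster 19 is therefore not assigned to a cell type. Proliferating cells had Ins1 to Ins2 ratios of 0.354 (29 Cre-positive cells) and 0.298 (35 Cre-negative cells), and 0.334 (225 IHG cells) and 0.300 (328 control offspring cells).

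Non-endocrine-like cells nearly all held insulin message at a low level. Ins2 had a UMI in 97.5% of Cre-positive, 97.5% of Cre-negative, 98.1% of IHG and 99.3% of control offspring non-endocrine-like cells, which comprise endothelial, fibroblast, pericyte, macrophage and Schwann classes that do not make insulin. Their median depth was 2096, 2283, 2089 and 1672 UMIs in the same order, against 10121, 10004, 9046 and 5828 UMIs in beta-like cells. With each cell thinned to 1000 UMIs the shares were 86.9%, 83.3%, 87.5% and 97.4%, leaving out 211, 32, 103 and 93 shallower cells. In alpha-like cells the thinned shares were 77.1%, 81.3%, 73.4% and 93.1%, below those of the non-endocrine-like cells, and no expression is read from them. As sums, Ins2 was 5381 CPM in Cre-positive alpha-like and 4323 CPM in Cre-positive non-endocrine-like cells, while in the other 3 libraries the alpha-like sum was the lower, at 2358 and 7562 CPM (Cre-negative), 2017 and 14451 CPM (IHG) and 8166 and 15301 CPM (control offspring). The median share of UMIs from the 3 genes per non-endocrine-like cell was 0.339% in Cre-positive and 0.305% in Cre-negative cells, and 0.346% in IHG and 0.897% in control offspring cells. Cells with over 1% of their UMIs from the insulin genes weighed heavily in the sums. They were 7.83% of Cre-positive and 7.69% of Cre-negative non-endocrine-like cells, and 13.2% of IHG and 41.0% of control offspring ones. Without them the 3 genes summed to 3428 CPM in Cre-positive and 2993 CPM in Cre-negative cells, and to 3428 CPM in IHG and 5698 CPM in control offspring cells. With them the sums were 6939 and 11329 CPM, and 21814 and 22739 CPM. The Cre-positive sum was thus 0.613 times the Cre-negative one over all such cells (log2 ratio -0.71), and higher without the insulin-rich ones (log2 ratio 0.20), a turn in direction. The IHG sum was 0.959 times the control one (log2 ratio -0.06), and with no doublets removed it was higher in IHG (log2 ratio 0.28).

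**Figure D4:**
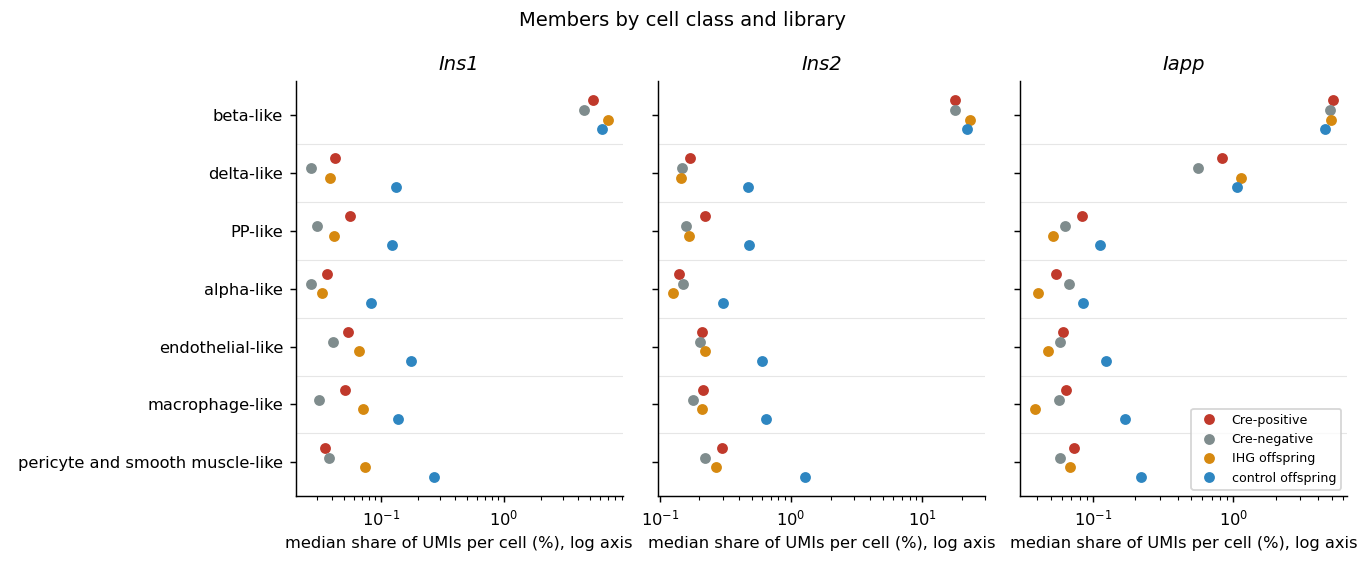
Median share of a cell's UMIs (%, log axis) from Ins1, Ins2 and Iapp in 7 cell classes of the 4 libraries. Classes with under 20 cells in a library are not drawn. Ins1 and Ins2 lie far lower in the other classes drawn than in beta-like cells, whereas Iapp stays at 0.555% to 1.14% in delta-like cells. The control offspring points lie to the right of the other libraries for both insulin genes outside beta-like cells.

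The ratio of Ins1 to Ins2 in free message was lowest in the Cre-negative library, as it was in beta-like cells. In non-endocrine-like cells with under 1% insulin UMIs, Ins1 to Ins2 was 0.262 (0.252 to 0.273) in Cre-positive and 0.207 (0.184 to 0.233) in Cre-negative cells, and 0.307 (0.290 to 0.324) in IHG and 0.293 (0.271 to 0.316) in control offspring cells. Delta-like cells with the same limit on insulin gave 0.274 in the Cre-positive and 0.201 in the Cre-negative library. In the floxed libraries the value in free message was below that of the beta-like class, at 0.311 in Cre-positive and 0.250 in Cre-negative cells. In the offspring libraries the value of non-endocrine-like cells was nearer, against 0.319 in IHG and 0.295 in control beta-like cells. Other classes under the same limit lay further below in offspring too. Delta-like cells gave 0.283 in IHG and 0.267 in control offspring, alpha-like cells 0.279 and 0.257, and PP-like cells 0.271 and 0.250.

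**Figure D5:**
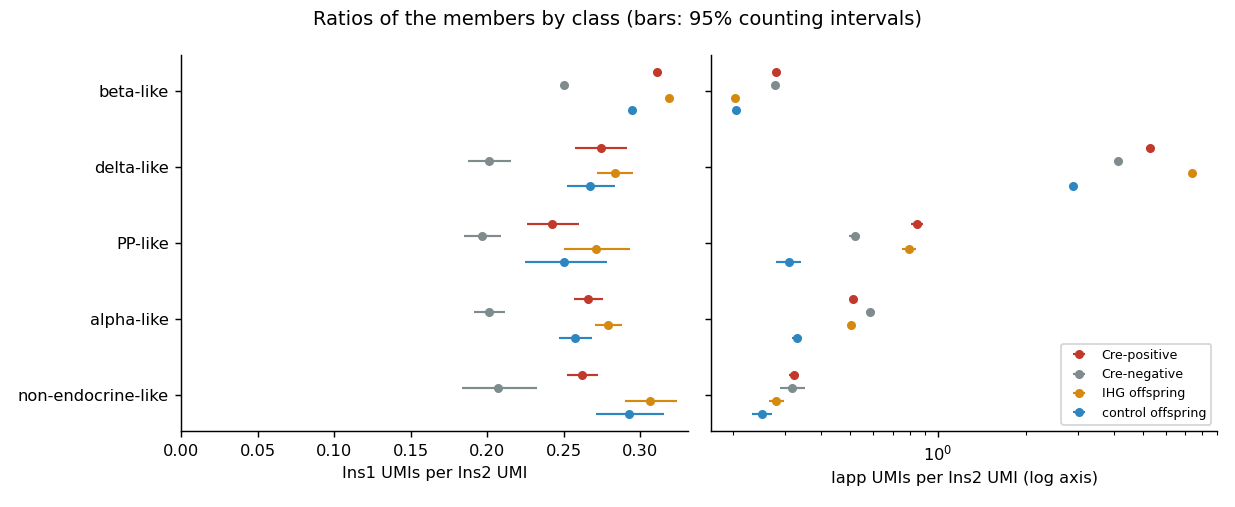
Ins1 UMIs per Ins2 UMI (left) and Iapp UMIs per Ins2 UMI (right, log axis) by class and library. Beta-like cells are shown whole, and in the other classes cells with under 1% insulin UMIs, a limit that acts on the denominator Ins2. Bars are 95% intervals of counting error. The Cre-negative points lie lowest on the left in each class drawn for all 4 libraries, and on the right the delta-like points lie from 2.90 to 7.36, far above the other classes.

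Iapp departed from the insulin genes in delta-like cells, the somatostatin-secreting class. Its median share of UMIs there was 0.831% in Cre-positive (712 cells) and 0.555% in Cre-negative cells (508 cells), and 1.14% in IHG (1320 cells) and 1.07% in control offspring cells (722 cells). The 5th to 95th percentiles ran from 0.219% to 1.91%, 0.0861% to 1.69%, 0.460% to 2.21% and 0.412% to 2.49% in that order. As CPM this was 19.3% of the beta-like level in the Cre-positive, 14.5% in the Cre-negative, 24.4% in the IHG and 28.3% in the control offspring library. Iapp outnumbered Ins2 in 596 of 712 Cre-positive (83.7%, 80.8 to 86.3), 425 of 508 Cre-negative (83.7%, 80.2 to 86.8), 1258 of 1320 IHG (95.3%, 94.0 to 96.4) and 489 of 722 control offspring delta-like cells (67.7%, 64.2 to 71.1). It did so in 5.79%, 7.08%, 3.01% and 1.95% of non-endocrine-like cells and in 0.971%, 1.25%, 0.662% and 0.269% of beta-like cells. Iapp to Ins2 in delta-like cells was 4.65 times (4.52 to 4.80) that of non-endocrine-like cells in the Cre-positive library, 8.83 times (8.34 to 9.35) in the Cre-negative, 16.2 times (15.8 to 16.7) in the IHG and 3.57 times (3.44 to 3.70) in the control offspring library. The size of this excess depended on which cells were called delta-like. On the log2 scale it was 2.22 in the Cre-positive, 3.14 in the Cre-negative, 4.02 in the IHG and 1.83 in the control offspring library, and with the members kept in clustering and naming it was 0.61 in the Cre-positive, 1.99 in the IHG and 0.46 in the control offspring library. With no doublets removed it was 1.14 in the Cre-negative library. Among cells with under 1% insulin UMIs it was 3.53 to 4.71, but this limit acts on Ins2, the denominator of the ratio. In delta-like cells the limit raised Iapp to Ins2 in every library, for example from 0.725 to 2.90 in control offspring and from 2.33 to 4.13 in Cre-negative cells.

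Between libraries, delta-like Iapp was 9983 CPM in Cre-positive and 7226 CPM in Cre-negative cells, a ratio of 1.38 (1.36 to 1.41). Without the cells with over 1% insulin UMIs it was 8723 and 6763 CPM (1.29). In offspring it was 12067 CPM in IHG and 13141 CPM in control cells (0.918), and without those cells 11774 and 10365 CPM (1.14), so the direction turned with the insulin-rich cells. Different clusters held most of the class here as well, cluster 8 for the Cre-positive (96.3%) and control offspring libraries (91.7%) and cluster 9 for the Cre-negative (98.0%) and IHG libraries (67.4%). Other endocrine classes showed a smaller excess of Iapp. Among cells with under 1% insulin UMIs, Iapp to Ins2 was 0.848 in Cre-positive and 0.519 in Cre-negative PP-like cells, which secrete pancreatic polypeptide, and 0.797 in IHG and 0.309 in control offspring ones. In alpha-like cells it was 0.514, 0.588, 0.506 and 0.330 in the order Cre-positive, Cre-negative, IHG and control offspring. The corresponding ratios of non-endocrine-like cells were 0.322, 0.318, 0.281 and 0.251. The limit acts on Ins2 here too, and over all cells the excess was smaller in some libraries. Without the limit, PP-like ratios were 0.359, 0.465, 0.480 and 0.281 in the same order. Alpha-like ratios were then 0.347, 0.471, 0.422 and 0.258, against 0.319, 0.264, 0.207 and 0.203 in non-endocrine-like cells. Of the 58 cells of a neuron-like cluster 55 were Cre-positive, and the 43 of these with under 1% insulin UMIs gave 0.764 (0.678 to 0.861).

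The genes whose pattern over classes was most like that of the members were sought over 28 profiles, each a class of 1 library with 50 or more cells, among 11484 genes. The measure was Pearson's correlation of log2(CPM + 5) and is a description, since profiles of 1 library share its free message. Ins1 and Ins2 followed each other at 0.996. The gene nearest to both was G6pc2, at 0.973 and 0.979. Next for Ins1 came Ucn3, Mafa, B830017H08Rik and Slc2a2, the glucose transporter of beta cells, at 0.955 to 0.963. For Ins2 they were B830017H08Rik, Slc2a2, Mafa and Sytl4, a granule protein, at 0.958 to 0.967. Iapp gave 0.875 with Ins1 and 0.892 with Ins2, and its nearest genes were others. They were Enho, a peptide gene, Mlxipl, a glucose-responsive transcription factor, Glp1r, the receptor of an incretin hormone, Gm27033 and Pdx1, at 0.932 to 0.943. Each of these 5 was present in delta-like as well as beta-like cells. Pdx1 was 85.2 CPM in Cre-positive delta-like cells and 63.9 CPM in Cre-negative ones, and 67.2 CPM in IHG and 84.1 CPM in control offspring ones. In beta-like cells it was 124, 105, 110 and 109 CPM in the same order. G6pc2, in contrast, was 36.9, 14.7, 20.4 and 86.2 CPM in delta-like cells, against 1262, 1467, 1489 and 1240 CPM in beta-like cells.

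Regulators of the members were compared as lists, with the size rule of 1.5-fold and 20 CPM. Of the 18 transcription factors that act on the insulin and amylin genes, 15 were measured in the floxed libraries, and 0 were higher and 2 lower in Cre-positive beta-like cells. Over all genes, 7.16% were higher (460) and 18.3% lower (1179), a split that turned under median-of-ratios scaling, to 759 genes higher and 637 lower. The list's median log2 ratio was 0.10, against -0.20 for all genes. Rfx6, a factor of endocrine development, had 57.0 CPM in Cre-positive and 96.2 CPM in Cre-negative cells (0.593 times), and Ldb1, a cofactor of Isl1, had 59.6 CPM and 93.9 CPM (0.634 times). Mafa was 508 CPM and 430 CPM, 1.18-fold higher, and Pdx1 was 124 CPM and 105 CPM, 1.18-fold higher. In offspring 14 were measured and 0 passed in either direction, against 0.453% of genes higher (25) and 0.671% lower (37), or 39 and 23 with median-of-ratios scaling. The list's median log2 ratio was -0.08, against -0.07 for all genes. Mafa came closest, with 852 CPM in IHG and 1270 CPM in control offspring cells (0.670 times).

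Of the 25 symbols listed for folding, processing and granule proteins 24 were found in the matrices, and all 24 were measured. In Cre-positive cells 2 were higher and 2 lower, against 7.16% and 18.3% of all genes, with a median log2 ratio of -0.03, against -0.20 for all genes. Hspa5, the main chaperone of the endoplasmic reticulum, had 2951 CPM in Cre-positive and 1449 CPM in Cre-negative cells (2.04-fold), and Pdia4, a disulfide isomerase, had 91.7 CPM and 60.6 CPM (1.51-fold). Pam, which amidates amylin and other peptides, had 284 CPM and 592 CPM (0.480 times). The prohormone convertase Pcsk1, which cuts proinsulin and the amylin precursor, had 145 CPM and 264 CPM (0.550 times), while Pcsk2, the other convertase, had 1929 CPM and 1747 CPM. In offspring 1 was higher and 0 lower, against 0.453% and 0.671% of all genes, and the median was -0.07 for the list and -0.07 for all genes. Pcsk1n, an inhibitor of Pcsk1, had 551 CPM in IHG and 323 CPM in control offspring cells (1.71-fold).

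The last list held receptors and adaptors of the hormones and a protease, of which 4 of 9 genes were measured in beta-like cells of the floxed libraries. Irs2, an adaptor of the insulin receptor, was higher, with 199 CPM in Cre-positive and 65.0 CPM in Cre-negative cells (3.07-fold). Igf1r, which encodes the receptor of insulin-like growth factors, was lower, with 65.2 CPM and 134 CPM (0.487 times), as was the insulin receptor gene Insr, with 17.6 CPM and 27.7 CPM (0.638 times). Over all genes 7.16% were higher and 18.3% lower. The list's median log2 ratio was -0.37, against -0.20 for all genes. Ide, an insulin-degrading protease, was 33.4 CPM and 35.4 CPM. Of 3 measured in offspring none passed, against 0.453% of genes higher and 0.671% lower, and their median was -0.19, against -0.07 for all genes. Insr was highest in endothelial-like cells, at 221 CPM in Cre-positive and 272 CPM in Cre-negative cells, and at 286 CPM in IHG and 283 CPM in control offspring cells. Calcr, the core of the amylin receptor, had no UMI in beta-like cells of any library. Elsewhere Calcr had 11 UMIs (3.02 CPM) in Cre-negative PP-like cells and 1 UMI in Cre-positive alpha-like cells. Of its partners, Ramp1 was 71.5 CPM in Cre-positive and 75.6 CPM in Cre-negative delta-like cells, and 74.0 CPM in IHG and 57.5 CPM in control offspring ones, against 7.68 to 9.78 CPM in beta-like cells. In macrophage-like cells Ramp1 was 30.0 CPM (Cre-positive), 25.7 CPM (Cre-negative) and 74.5 CPM (IHG), so it was not particular to delta-like cells. Ramp2 and Ramp3 stood highest in endothelial-like cells, at 485 to 818 CPM and 371 to 422 CPM.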

How the data were processed

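Islets were dissociated and their cells sequenced at the 3′ end with the SeekOne MM kit, per the labels' protocols. The deposited matrices hold counts, whole numbers of UMIs per gene and barcode, and were not normalized by the authors as far as the values show. The submitters' processing notes name Cell Ranger, Seurat and mm10, with no role for each, and neither counting rules nor strand use are stated in the sources used here. Of 32285 gene identifiers, 32158 were found in GENCODE vM21.

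Barcodes with 500 or more genes and at most 20% mitochondrial UMIs were kept. Scrublet (scanpy 1.11.5, expected rate 0.06) marked 1.67% of Cre-positive, 0.101% of Cre-negative, 4.39% of IHG and 0% of control offspring cells by its automatic threshold, which was taken to have failed in the Cre-negative and control offspring libraries, and for this reason the cells with the highest 6% of scores were taken out of every library. Cell totals were set to 10000. From 2000 variable genes without Ins1, Ins2 and Iapp, 30 principal components and 15 neighbours gave Leiden clusters at resolution 1 (leidenalg 0.10.2), with no batch correction. A cluster was named from fixed markers where its score was 1 or more, led the next class by 1 and rested on 3 markers at 20 CPM. Its top 10 genes could not hold more markers of another class than of its own. A cluster with 3 or more cell cycle markers among its top 10 genes was named proliferating whatever its scores. Clusters 7, 11, 15 and 19 stayed unnamed.

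UMIs were summed per class and library and compared as CPM. Intervals at 95% are exact binomial (shares), exact Poisson (levels) and exact conditional binomial (ratios of levels), from scipy 1.17.1. For the ratio of 2 gene ratios an interval from the log-normal approximation replaced the exact one, which could not be computed for sums this large. The ratio functions were tested on simulated data. Named were the members, the 5 genes most like each, and list genes past 1.5-fold. Genes given for cells with little Ins1, Mafa and Pdx1 in the transcription factor list, Pcsk2, Ide and the clusters named were chosen after their values were seen. Within-cluster ratios, the 1% limit on insulin UMIs outside beta-like cells and the limit of 10% on Ins1 were also chosen after seeing the data. The members and lists were chosen with earlier results of these data known. Alternatives changed the doublet step, the clustering, the scaling, the depth and the cells used. UMIs from 1 library do not show how animals vary.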

Additional observations from a re-analysis of the deposited data

How the results depend on the processing

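Of 139 alternative values 13 changed sign and 106 moved past the counting interval or, for counts of genes, by over 1.5 times. The other 20 stayed within these limits. Values below are log2 ratios, Cre-positive over Cre-negative or IHG over control offspring, unless a percentage or count. The cause of the changes was not tested. No paired analysis was possible because each group is 1 library and the labels give no replicate numbers. Clustering the control offspring library on its own named no delta-like cells, so it gave no value there. With no doublets removed the Cre values were 0.44 for Ins1, 0.11 for Ins2, 0.11 for Iapp, 0.33 for Ins1 to Ins2 and 0.79 for all 3 outside endocrine cells (opposite sign). The offspring values were 0.19 for Ins1, 0.089 for Ins2, 0.099 for Iapp, 0.10 for Ins1 to Ins2 and 0.28 for all 3 outside endocrine cells (opposite sign). The Iapp to Ins2 ratio, delta-like over non-endocrine-like cells, was 2.45 in Cre-positive, 1.14 in Cre-negative and 3.58 in IHG offspring. Ins1 was under 10% in 19.2% of Cre-negative cells and 3.24% of IHG offspring cells. With separate clustering of the libraries the Cre values were 0.16 for Ins1, -0.020 for Ins2 (opposite sign), -0.044 for Iapp (opposite sign), 0.18 for Ins1 to Ins2 and -0.58 for all 3 outside endocrine cells. In offspring these were 0.17 for Ins1, 0.072 for Ins2, 0.097 for Ins1 to Ins2 and -1.40 for all 3 outside endocrine cells. The Iapp to Ins2 ratio, delta-like over non-endocrine-like cells, was 2.14 in Cre-positive, 3.56 in Cre-negative and 2.80 in IHG offspring. Ins1 was under 10% in 0.337% of Cre-positive cells, 1.7% of Cre-negative cells, 3.32% of IHG offspring cells and 0.175% of control offspring cells. With the members kept in clustering and naming the Cre values were 0.47 for Ins1, 0.13 for Ins2, 0.12 for Iapp, 0.35 for Ins1 to Ins2 and -0.43 for all 3 outside endocrine cells. For offspring they were 0.19 for Ins1, 0.090 for Ins2, 0.098 for Iapp and 0.10 for Ins1 to Ins2. The Iapp to Ins2 ratio, delta-like over non-endocrine-like cells, was 0.61 in Cre-positive, 1.99 in IHG offspring and 0.46 in control offspring. Ins1 was under 10% in 0.724% of Cre-positive cells, 19.7% of Cre-negative cells, 2.87% of IHG offspring cells and 0.56% of control offspring cells. With hormones and mitochondrial genes out of the denominator the Cre values were 0.40 for Ins1, 0.091 for Ins2 and 0.10 for Iapp. The offspring values were 0.30 for Ins1, 0.18 for Ins2 and 0.17 for Iapp. With median-of-ratios scaling the Cre values were 0.56 for Ins1, 0.24 for Ins2 and 0.26 for Iapp. In offspring these were 0.29 for Ins1, 0.18 for Ins2 and 0.16 for Iapp. With a minimum of 5 CPM, 2857 genes passed 1.5-fold in the Cre comparison, against 1639, and 183 in offspring, against 62. Without cells with over 1% other hormones the Cre values were 0.34 for Ins1, 0.042 for Ins2, 0.041 for Iapp and 0.30 for Ins1 to Ins2. For offspring they were 0.23 for Ins1, 0.12 for Ins2, 0.096 for Iapp and 0.12 for Ins1 to Ins2. With the mean of per-cell shares the Cre values were 0.38 for Ins1, 0.028 for Ins2, 0.073 for Iapp and 0.35 for Ins1 to Ins2. The offspring values were 0.22 for Ins1, 0.12 for Ins2, 0.14 for Iapp and 0.10 for Ins1 to Ins2. With the median of per-cell shares the Cre values were 0.16 for all 3 outside endocrine cells (opposite sign). In offspring these were -1.38 for all 3 outside endocrine cells. With cells thinned to 1000 UMIs the Cre values were 0.38 for Ins1, 0.031 for Ins2, 0.077 for Iapp, 0.35 for Ins1 to Ins2 and -0.17 for all 3 outside endocrine cells. For offspring they were 0.21 for Ins1, 0.11 for Ins2, 0.13 for Iapp, 0.10 for Ins1 to Ins2 and -0.65 for all 3 outside endocrine cells. Among cells under 1% insulin UMIs the Cre values were 0.20 for all 3 outside endocrine cells (opposite sign). The offspring values were -0.73 for all 3 outside endocrine cells. The Iapp to Ins2 ratio, delta-like over non-endocrine-like cells, was 4.04 in Cre-positive, 3.70 in Cre-negative, 4.71 in IHG offspring and 3.53 in control offspring. Within cluster 0 the Cre values were 4.9e-05 for Ins1, -0.086 for Ins2 (opposite sign), -0.11 for Iapp (opposite sign) and 0.086 for Ins1 to Ins2. In offspring these were 0.31 for Ins1, 0.16 for Ins2, 0.0017 for Iapp and 0.15 for Ins1 to Ins2. Within cluster 1 the Cre values were 0.064 for Ins1, -0.091 for Ins2 (opposite sign), -0.19 for Iapp (opposite sign) and 0.16 for Ins1 to Ins2. For offspring they were 0.18 for Ins1, 0.098 for Ins2, -0.060 for Iapp (opposite sign) and 0.079 for Ins1 to Ins2. Within cluster 2 the offspring values were -0.10 for Ins1 (opposite sign), 0.00088 for Ins2, 0.057 for Iapp and -0.10 for Ins1 to Ins2 (opposite sign). Within cluster 4 the offspring values were 0.27 for Ins1, 0.12 for Ins2, 0.22 for Iapp and 0.15 for Ins1 to Ins2. Intervals of counting error are so narrow at these depths that most shifts exceed them, and the spread between animals is unknown.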
